A study of Mus musculus with 57 samples.

Results

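The genes described are the subunits of the GABA-A and GABA-B receptors, the glycine receptor, the NMDA and kainate classes of ionotropic glutamate receptor, and the metabotropic glutamate receptors, as read by 3′ tag sequencing (MARS-Seq) of bulk RNA from wild-type mouse visual cortex. They were chosen by symbol (names beginning Gabr, Gabbr, Grin, Grik, Grm, Glra or Glrb) and by level. Of 24394 named genes in the table, 43 with these names are described, of which 29 averaged 1 or more over the 57 libraries, and 22 of those had a mean of at least 10 and were tested. Times of collection are Zeitgeber times (ZT), counted in hours from when lamps normally came on. In the light arm, 27 libraries came from animals kept on a cycle of equal light and darkness up to and including the day of collection, sampled at ZT1, ZT3, ZT7.5 and ZT11.5 by day and ZT13, ZT15 and ZT18 by night, with 4 libraries a time except 3 at ZT18. In the dark arm, 30 libraries came from animals of the same housing for which the lamps stayed off on the last day. These were sampled at the same times and at ZT0, with 4 libraries a time except 3 at ZT1 and ZT13. The sources used here give neither age nor sex. They call the samples biological replicates without saying that these were different animals, so a p-value reflects spread among samples that may be technical in part.

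GABA is the main inhibitory transmitter of the cortex and glutamate the main excitatory one. GABA-A receptors are chloride channels built from alpha and beta subunits with a gamma or delta subunit, and GABA-B receptors are coupled to G proteins. NMDA receptors pair the obligatory subunit of Grin1 with subunits of the Grin2 or Grin3 genes and let calcium in when glutamate binds to a depolarised cell. Kainate receptors modulate release and excitability, and metabotropic receptors signal through G proteins in 3 groups. In the visual cortex the balance of these receptors is known for its part in experience-dependent plasticity.

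The promoter windows of 5 genes on which the results below turn are shown, from RefSeq on GRCm38.p6, each running from 250 bases before to 50 after an annotated start: Grin1, Grm2 and Glrb as members whose level changed over the day, and Gabra4 and Gabrb1 as neighbours with opposed starts. Each is written 5′ to 3′ on the gene's strand. Capitals mark 3 motifs searched on both strands: the E-box CACGTG, the core of the cyclic-AMP response element (CRE), TGACG or CGTCA, and the GC box GGGCGG or CCGCCC.
Grin1, chr2:25319138-25319437, minus strand: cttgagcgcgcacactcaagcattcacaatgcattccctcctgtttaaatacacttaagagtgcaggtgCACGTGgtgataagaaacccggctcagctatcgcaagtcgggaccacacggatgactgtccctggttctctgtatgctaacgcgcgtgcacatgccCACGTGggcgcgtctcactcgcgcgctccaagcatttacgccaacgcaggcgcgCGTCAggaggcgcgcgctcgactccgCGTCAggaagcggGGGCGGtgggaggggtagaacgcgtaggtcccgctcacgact
Grm2, chr9:106656060-106656359, minus strand: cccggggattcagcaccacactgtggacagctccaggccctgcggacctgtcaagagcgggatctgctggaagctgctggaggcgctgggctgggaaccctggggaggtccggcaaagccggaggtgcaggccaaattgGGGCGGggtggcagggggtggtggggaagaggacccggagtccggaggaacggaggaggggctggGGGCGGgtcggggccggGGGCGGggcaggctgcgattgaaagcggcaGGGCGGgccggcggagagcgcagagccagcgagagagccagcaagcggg
Glrb, chr3:80913611-80913910, minus strand: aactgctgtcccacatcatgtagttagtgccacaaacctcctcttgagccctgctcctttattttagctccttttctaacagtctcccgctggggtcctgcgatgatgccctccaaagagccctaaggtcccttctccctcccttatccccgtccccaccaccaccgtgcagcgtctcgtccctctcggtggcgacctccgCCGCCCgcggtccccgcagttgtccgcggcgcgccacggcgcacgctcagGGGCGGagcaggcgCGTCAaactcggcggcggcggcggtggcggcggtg
Gabra4, chr5:71658259-71658558, minus strand: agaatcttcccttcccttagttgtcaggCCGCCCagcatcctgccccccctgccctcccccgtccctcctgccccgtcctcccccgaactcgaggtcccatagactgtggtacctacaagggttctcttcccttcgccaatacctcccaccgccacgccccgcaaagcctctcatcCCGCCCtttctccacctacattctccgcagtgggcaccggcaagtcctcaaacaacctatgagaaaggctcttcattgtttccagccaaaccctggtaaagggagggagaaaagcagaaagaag
Gabrb1, chr5:71657671-71657970, plus strand: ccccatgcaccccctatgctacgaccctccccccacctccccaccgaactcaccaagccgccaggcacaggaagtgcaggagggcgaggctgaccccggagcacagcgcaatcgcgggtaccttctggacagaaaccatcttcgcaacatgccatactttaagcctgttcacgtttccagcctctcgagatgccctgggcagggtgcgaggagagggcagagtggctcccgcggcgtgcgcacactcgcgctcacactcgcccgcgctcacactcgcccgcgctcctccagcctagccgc
Windows were found for 22 of the 29 members. The Grin1 window held 2 E-boxes, 2 CRE cores and 1 GC box. Of the 29 windows of these 22 members, it was the only one with an E-box. Among 32851 windows of the same 300 bases, with 1 chromosome left out, 7.15% held an E-box, 20.8% a CRE core and 35.7% a GC box. The Grm2 window held 4 GC boxes, the Glrb window 2 GC boxes and 1 CRE core, the Gabra4 window 2 GC boxes, and the Gabrb1 window none of the 3 motifs. A match describes letters in a window and is not evidence of binding.

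The tissue and the light response were checked first. All markers of excitatory neurons and interneurons were read in every library (Slc17a7 at 2609 to 5390.2 and Gad1 at 620.4 to 1017). Of the 5 striatal markers, Drd2 was listed at 0 in all 57 libraries and the other 4 were read in each, with a sum of 535 to 1305. Summed thalamic markers ran from 86.0 to 386 and summed choroid plexus markers from 64.5 to 20910.0 between libraries. Fos, an immediate-early gene, averaged 389 in light and 48.9 in dark libraries at ZT1, a log2 difference of 2.96 (adjusted p = 2.4e-07, limma over 10526 genes). Depth ran from 1.64 to 4.31 M reads per library, with a median of 2.76 M in light and 2.75 M in dark libraries. In bulk tissue, fewer cells of a type and less RNA per cell cannot be told apart, which holds for every difference below.

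Values are deposited normalised counts, given as mean ± SD over 57 libraries. The libraries carry tags from the 3′ ends of transcripts, so a value does not scale with transcript length and also depends on how much of each 3′ end is annotated. Levels are therefore listed by role and not ranked between genes. Among GABA-A alpha subunits, which set the pharmacology of the receptor, Gabra5 was at 151 ± 33.4, Gabra3 at 114 ± 21.2, Gabra2 at 64.4 ± 13.7 and Gabra4 at 54.3 ± 16.5. The beta subunits, which help to form the GABA site, were represented by Gabrb1 at 213 ± 25.8 and by Gabrb2, which at 9.08 ± 4.15 was below the limit for testing. Gabrd, the delta subunit of extrasynaptic receptors that carry tonic inhibition, was at 260.2 ± 41.0. All 7 of these subunits had reads in each of the 57 libraries.

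For the GABA-B receptor, an obligate dimer, Gabbr1 was at 772 ± 114 and Gabbr2, below the limit for testing, at 8.5 ± 3.24. Glrb, the beta subunit that anchors glycine receptors to gephyrin, was at 351 ± 52.5, while the alpha subunits Glra1 and Glra2 were at 2.65 ± 4.95 and 2.56 ± 1.86. Glra1 was spread unevenly. It had no read in 21 libraries and reached 26.1 in light ZT7.5 replicate 1, against 0 to 6.07 in the other light libraries of that time. In dark libraries its highest value was 23.1, at ZT3.

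Grin1 was at 1902 ± 288, ranging from 1189 to 2641. Of the glutamate-binding NMDA subunits, Grin2b was at 436 ± 80.7 and Grin2c at 128 ± 21.2. Grin2a was listed at 0 in all 57 libraries, as were the retinal receptor gene Grm6, Gabrp and the antisense gene Grin1os. A listing at 0 in 3′ tag data can reflect the annotation used for counting, which the sources used here do not give. The glycine-binding NMDA subunits Grin3a and Grin3b were at 6.25 ± 2.77 and 1.56 ± 1.35. Of the kainate subunits, the auxiliary high-affinity ones, Grik5 and Grik4, were at 754 ± 134 and 89.8 ± 13.6, and the channel-forming ones were at 154 ± 23.9 for Grik3, 31.3 ± 7.75 for Grik2 and 24.6 ± 6.84 for Grik1.

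Grm5, a group I metabotropic receptor coupled to phospholipase C, was at 49.0 ± 15.7. The group II receptors, which lower cyclic AMP, were at 178 ± 24.2 for Grm2 and 17.5 ± 5.79 for Grm3. In group III, also inhibitory, Grm4 was at 108 ± 25.3, Grm7 at 23.4 ± 6.51 and Grm8 at 13.1 ± 3.26. Of the 29 members, Gabrr2, a rho subunit, had the remaining low mean, 3.14 ± 2.60. The 14 genes under a mean of 1 were, besides the 4 at 0, Gabra6, Gabrg1, Gabrg3, Grin2d, Gabre, Gabrq, Gabrr1, Gabrr3, Glra3 and Glra4.

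Across the 15 groups, the highest group mean was 1.24 to 2.43 times the lowest in the 22 tested members, with a median of 1.49, and the median over all 10526 genes tested was 1.42. Gabbr1 was the steadiest at 1.24 times, with 682 ± 109 at light ZT11.5 (SD, n = 4) and 843 ± 89.3 at dark ZT13 (SD, n = 3). Gabra4 spanned the 2.43 times, with 69.5 ± 12.6 at dark ZT11.5 and 28.6 ± 6.39 at dark ZT18 (SD, n = 4 each). Dark ZT18 held the lowest group mean of 5 of the 22 members, against 11.9% of all genes tested. These were Gabra4, Gabra5, Glrb, Grik2 and Grm5.

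The first comparison asks whether a day of light altered these transcripts at each time. No member passed an adjusted p of 0.05 at any of the 7 times, by limma on log2(value + 1) over all genes tested. Of all genes tested, the share that passed was 0.257% at ZT1, 0.124% at ZT3, 0.152% at ZT11.5 and 0.038% at ZT13, and it was 0 at ZT7.5, ZT15 and ZT18. An unadjusted p under 0.05 was reached by 0 members at ZT1 (4.64% of genes), 0 at ZT3 (6.94%), 0 at ZT7.5 (5.82%), 3 at ZT11.5 (8.02%), 1 at ZT13 (8.27%), 1 at ZT15 (4.41%) and 3 at ZT18 (9.16%). In edgeR and DESeq2 fits to recovered reads, 0 members were called at each time. A difference between the arms that varied with time was called for 0 of 22 members by each of the 3 tools, and for 0.181% of genes by limma. An unadjusted p under 0.05 was reached by 0 members and 6.87% of genes in the limma test, where the smallest adjusted p were 0.79 for Gabrb1 and Gabra4, 0.84 for Gabra3, 0.85 for Grm4 and Grm5 and 0.87 for Grik2.

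Averaged over ZT1 to ZT11.5, when lamps were on in the light arm alone, 0 of 22 members were called, against 0.903% of genes, and 0 had an unadjusted p under 0.05, against 11.3%. The 95% interval of the difference lay between -0.5 and 0.5 on the log2 scale for every one of the 22. The difference was 0.11 for Grin1 (interval -0.03 to 0.24), -0.03 for Grin2b (-0.19 to 0.13) and -0.06 for Gabbr1 (-0.21 to 0.09). Of the members with the smallest p, Grin1 had an adjusted p of 0.59, and Gabrb1 and Grm2 both differed by -0.09 (-0.21 to 0.03), with adjusted p of 0.59 and 0.61. In this average 10 of the 22 members had a difference above 0, with a median difference of -0.02, beside 0 over all genes.

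**Figure D1:**
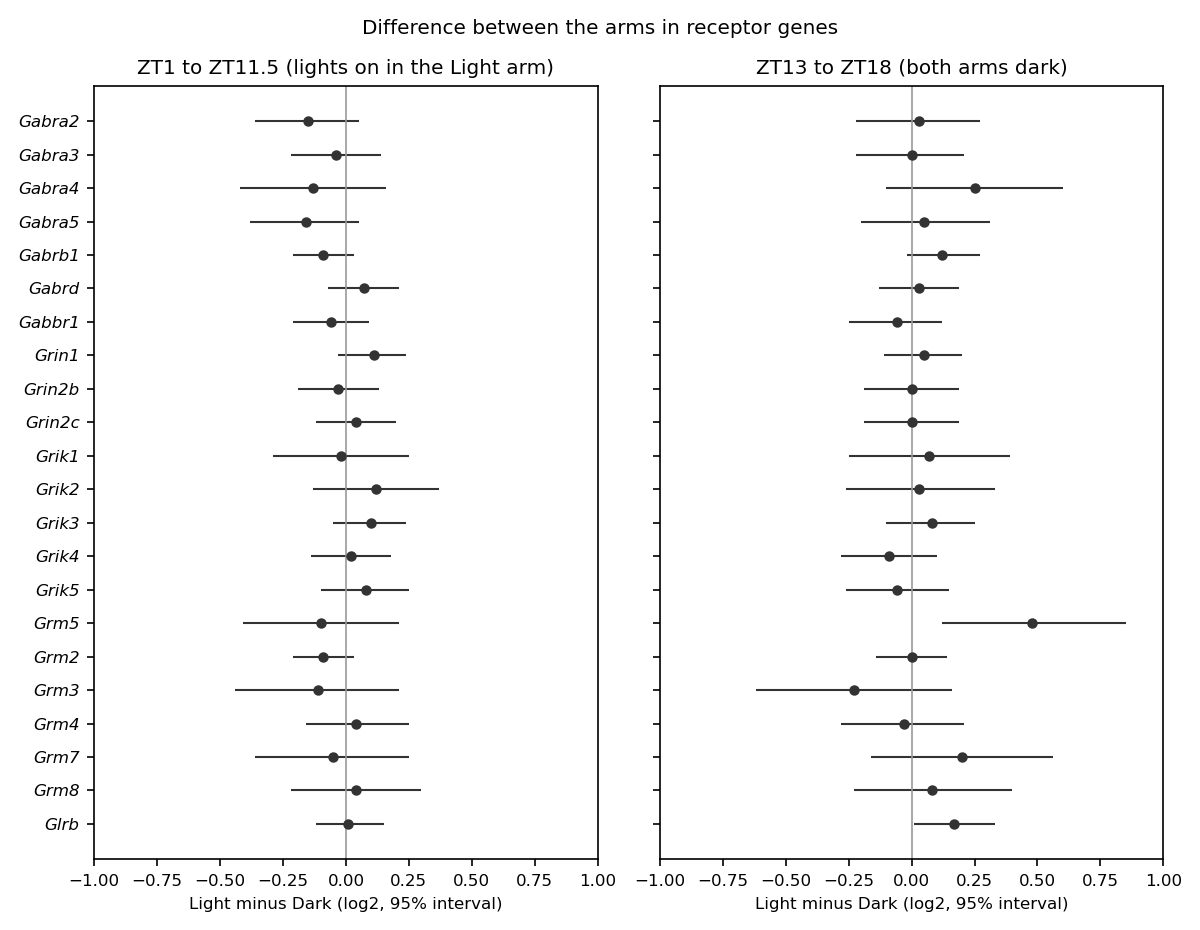
Light minus dark difference of each tested receptor gene on the log2(value + 1) scale (x axis), averaged over ZT1 to ZT11.5 (left) and ZT13 to ZT18 (right). Points are limma estimates and bars 95% intervals. All 22 intervals on the left and 18 of 22 on the right lie between -0.5 and 0.5.

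After the usual lights-off, from ZT13 to ZT18, 0 of 22 members were called, against 0.0285% of genes, and 2 had an unadjusted p under 0.05, against 8.52%. The intervals of 18 members lay between -0.5 and 0.5. Grm5 had the largest averaged difference, 0.48 (SE 0.18, unadjusted p = 0.011, adjusted p = 0.42). It also had the smallest p, and the next smallest were those of Glrb, with 0.17 (SE 0.08, adjusted p = 0.56), and Gabrb1, with 0.12 (SE 0.07, adjusted p = 0.65). The largest difference at a single time was that of Gabra4 at ZT18. Its values were 59.3, 83.0 and 37.6 in light libraries and 26.5, 23.3, 26.8 and 37.9 in dark libraries. The groups overlapped by 1 library of each arm, and the log2 difference of 0.99 (SE 0.31) had an adjusted p of 0.30.

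Grm5 at ZT18 was at 82.4, 73.4 and 37.6 in light libraries and 22.1, 40.5, 41.2 and 27.1 in dark libraries. Again 1 light library lay within the dark range, and the log2 difference was 0.93 (SE 0.32, adjusted p = 0.34). The values of both genes were higher in light replicates 1 and 2 than in replicate 3. Gabrb1 at ZT13 was at 220.4, 207, 258 and 269.6 in light libraries and 206, 176 and 188 in dark libraries, where the lowest light value stood just above the highest dark one. That log2 difference was 0.32 (SE 0.13, adjusted p = 0.43). At ZT11.5, Grik2 was at 45.9, 33.9, 43.7 and 32.9 in light libraries and 20.2, 22.7, 27.5 and 32.6 in dark libraries. None of the dark values exceeded the lowest light value there, and the difference of 0.59 (SE 0.24) had an adjusted p of 0.47.

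The other members with the smallest p at each time are given as log2 differences, all with an adjusted p of 0.47 or more. In the morning at ZT1, the kainate subunit Grik3 differed by 0.24 (SE 0.15), Gabra3 by -0.26 (SE 0.19) and Grin1 by 0.18 (SE 0.14). At ZT3, Gabra5 differed by -0.38 (SE 0.21), the kainate subunit Grik1 by -0.38 (SE 0.26) and Grin1 by 0.21 (SE 0.13). At ZT7.5, Grm2 differed by -0.19 (SE 0.12), Grik4 by 0.22 (SE 0.16) and Gabra2 by -0.26 (SE 0.20). None of these differences was as large as 2 of its standard errors. At ZT11.5, Gabrd differed by 0.28 (SE 0.13) and Grin2b by -0.33 (SE 0.16). Grm4, which signals to lower release from axon terminals, differed by 0.37 (SE 0.22) at ZT13 and by -0.49 (SE 0.22) at ZT18, so that its estimate changed sign within the night. Grik3 differed by 0.26 (SE 0.15) at ZT13. At ZT15, Gabra3 differed by 0.36 (SE 0.18), Grm3 by -0.59 (SE 0.32) and Grik5 by -0.28 (SE 0.17). For Gabra3 the estimate at ZT1 had the opposite sign.

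The second comparison asks whether transcripts changed over the 7 times shared by the arms, taking the mean of both. By limma's F test, 6 of the 22 members changed (27.3%), against 19.3% of all genes tested. An unadjusted p under 0.05 was reached by 9 members, against 35.3% of genes. The 6 were 2 NMDA subunits, 1 kainate subunit, 1 metabotropic receptor, the delta subunit of the GABA-A receptor and the glycine receptor beta subunit. None of the 4 tested alpha subunits described here passed, nor did Gabrb1 or Gabbr1. Grm2 kept its call in each of the 53 fits that left out 1 library, and Grin1 in 52 of them.

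The count rested on few libraries. It fell to 2 (Gabrd and Grm2) without dark ZT1 replicate 2 and to 3 (Gabrd, Grin1 and Grm2) without dark ZT1 replicate 1. With the arms tested apart, 0 of 22 members passed over the 7 light times, against 3.81% of genes, and 0 of 22 over the 8 dark times, against 6.52%. An unadjusted p under 0.05 was reached by 5 members over the light times (18.8% of genes) and 7 over the dark times (24.4%). The smallest adjusted p over the light times were 0.095 for Grin2b, 0.14 for Grm2, 0.15 for Gabrb1, 0.18 for Gabrd, 0.24 for Grin1 and 0.31 for Gabra2. Over the dark times they were 0.059 for Gabra4, 0.082 for Glrb, 0.12 for Grik5, 0.14 for Grin1, 0.16 for Grm2 and 0.17 for Grm4. For the light times edgeR and DESeq2 also called 0. For the dark times edgeR called 0 and DESeq2 called 2, Gabra4 and Glrb, and limma without dark ZT1 replicate 3 called 4, these 2 with Grik5 and Grin1.

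Grin1, the subunit that every NMDA receptor needs, was highest at ZT13 and lowest at ZT1. At ZT13 its values were 1995, 1928, 2327 and 2641 in light libraries and 1973, 2359.7 and 1796 in dark libraries. At ZT1 they were 1804, 1811, 1414 and 1579 in light libraries and 1317, 1189 and 1940.1 in dark libraries. Light libraries of the 2 times did not overlap, while among dark libraries 1 ZT1 library reached into the ZT13 range. The difference was 0.46 on the log2 scale (SE 0.10), with adjusted p = 0.0083 for the course. The 2 times were picked from these same values as highest and lowest, here and for the genes below. Such a difference was not itself tested, and each adjusted p is that of the F test over the 7 times. Dark ZT0 libraries, an hour before, stood at 1773, 1693, 2046 and 1999.

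Grin2b, the glutamate-binding subunit that slows the channel's decay, was lowest at ZT11.5, with 301, 329, 289 and 362 in light libraries and 408, 379, 355 and 474 in dark libraries. At ZT15, its highest time, it was at 441, 439.8, 618 and 412 in light libraries and 438, 596, 474 and 409 in dark libraries. The 2 times were apart among light libraries and overlapped among dark ones, and the difference was 0.40 (SE 0.11; adjusted p = 0.033 for the course). Grik5 was lowest at ZT1, with 812, 641, 474 and 736 in light libraries and 544, 418 and 829 in dark libraries. At ZT7.5 it was at 875, 676, 863 and 961 in light libraries and 880.1, 844, 944 and 789.7 in dark libraries. The difference was 0.47 (SE 0.12; adjusted p = 0.031 for the course), and in each arm 1 or more ZT1 libraries lay within the ZT7.5 range.

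Grm2, an autoreceptor that lowers glutamate release, was lowest at ZT1, with 148, 178, 151 and 142 in light libraries and 139.8, 138 and 159 in dark libraries. At ZT13 it was at 166, 158, 222 and 242 in light libraries and 213, 199.9 and 198 in dark libraries. In the dark arm the times did not overlap, and in the light arm 2 ZT13 libraries lay within the ZT1 range. The difference was 0.40 (SE 0.09), and the adjusted p for the course, 0.007, was the smallest of the members.

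Gabrd peaked at ZT7.5, with 286, 259.7, 363 and 341 in light libraries and 272, 291, 329 and 289 in dark libraries. At ZT3 it was at 212, 211, 277 and 226 in light libraries and 203, 235, 242 and 219 in dark libraries. The dark values at these times did not overlap, and the light values overlapped through 1 ZT3 library. The difference was 0.41 (SE 0.09; adjusted p = 0.027 for the course). Glrb was highest at ZT11.5, with 376, 368, 469.6 and 361 in light libraries and 361, 369.8, 428 and 427 in dark libraries. At ZT18 it was at 306, 377 and 319 in light libraries and 268, 278, 298 and 268 in dark libraries. The difference was 0.37 (SE 0.10; adjusted p = 0.048 for the course). In the dark arm every ZT18 value was below every ZT11.5 value. The Glrb call was the least steady of the 6, held in 21 of the 53 fits without 1 library, beside 47 for Grin2b and 50 each for Gabrd and Grik5.

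**Figure D2:**
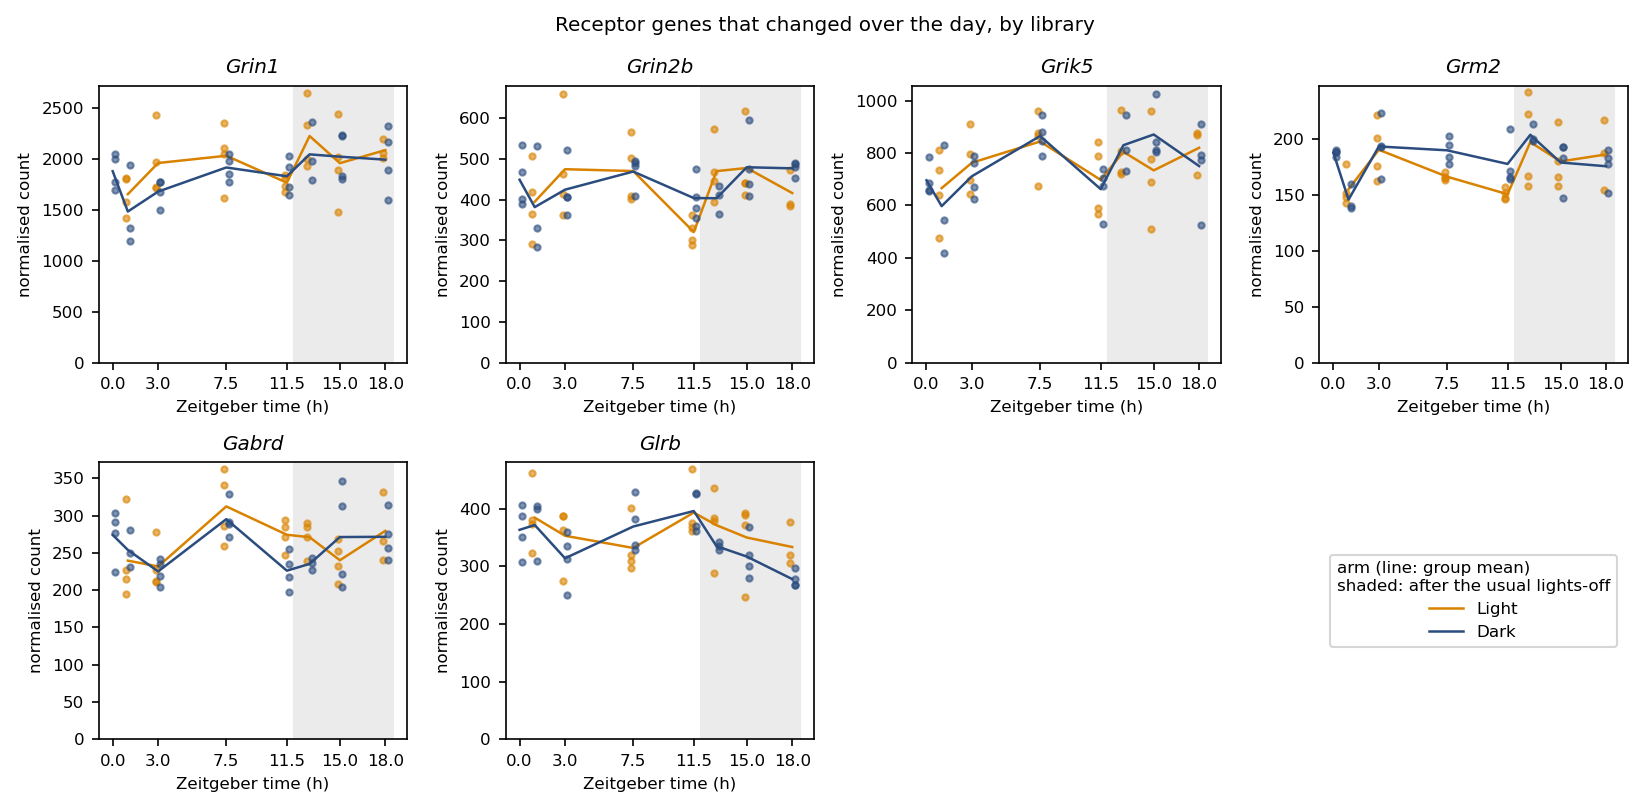
Normalised counts (y axes, from 0) of the 6 receptor genes that changed over the day against Zeitgeber time in hours (x axes). Points are single libraries, lines join group means, orange is the light arm and blue the dark arm, and shading marks times after the usual lights-off. Grin1, Grik5 and Grm2 were lowest at ZT1 in the mean of both arms, and Glrb at ZT18.

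Night (ZT13 to ZT18) minus day (ZT3 to ZT11.5, leaving out ZT1) differences were called for 0 of 22 members in the mean of both arms, against 6.94% of genes. Within light libraries 0 were called against 1.03%, and within dark ones 0 against 2.52%. At an unadjusted p under 0.05 there were 4 members in the mean of both arms (21.4% of genes), 4 over light libraries (12.9%) and 3 over dark ones (18.1%), and edgeR and DESeq2 also called 0 in all 3. The smallest p in the mean of both arms were those of Grm3, with a log2 difference of -0.38 (SE 0.13, adjusted p = 0.07), and Grik3, with 0.17 (SE 0.06, adjusted p = 0.074). Next came Grin1, with 0.14 (SE 0.05), Glrb, with -0.12 (SE 0.06), Gabra4, with -0.24 (SE 0.12), and Gabrb1, with 0.09 (SE 0.05), at adjusted p of 0.11 to 0.26. Without light ZT11.5 replicate 4, light ZT13 replicate 2 or dark ZT13 replicate 3, 1 member was called, Grm3. Without light ZT7.5 replicate 4, dark ZT11.5 replicate 1 or dark ZT15 replicate 4, it was Grik3. Without light ZT3 replicate 3 or dark ZT18 replicate 2, 2 members were called, both of these. Gabra4 over the 8 dark times came closest to a call within an arm. Its 4 dark ZT18 values, given above, were among the 5 lowest of the dark arm, the other being 37.6 at ZT0.

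Libraries of the same group differed among themselves in a way that ran through these genes. With group means removed, Pearson's r over 57 libraries was 0.79 between Grin1 and Grik5, 0.61 between Grin1 and Grin2b, 0.44 between Grin1 and Gabrd, and 0.43 between Grin1 and Grm2. Against Grin1, r was -0.66 for Glrb, -0.59 for Gabra4 and -0.53 for Grm7. So Grin1, Grik5 and Grin2b tended to be high in the libraries where Glrb and Gabra4 were low. All correlations here share libraries, depth and normalisation, and are given as descriptions.

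The relation of Grin1 and Glrb had a Spearman's rho of -0.63, an r of -0.60 without the 2 libraries farthest from the median of Glrb, and an r of -0.77 within light libraries and -0.53 within dark ones. In light ZT3 libraries Grin1 was at 1712, 1725, 2424 and 1970.5 and Glrb, in the same order of replicates, at 388, 388, 274 and 363. The library highest in Grin1 there was the lowest in Glrb. Among the 231 pairs of tested members, 11 had an r of at least 0.5 and 9 an r of at most -0.5, within -0.73 to 0.79. The share over all pairs of genes tested was not computed, so these counts have no background beside them. With Grin1 alone, Grik5 and Grin2b had an r of at least 0.5, and Glrb, Gabra4 and Grm7 of at most -0.5. Of all other genes tested, 6.74% had an r with Grin1 of at least 0.5 and 5.01% of at most -0.5.

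**Figure D3:**
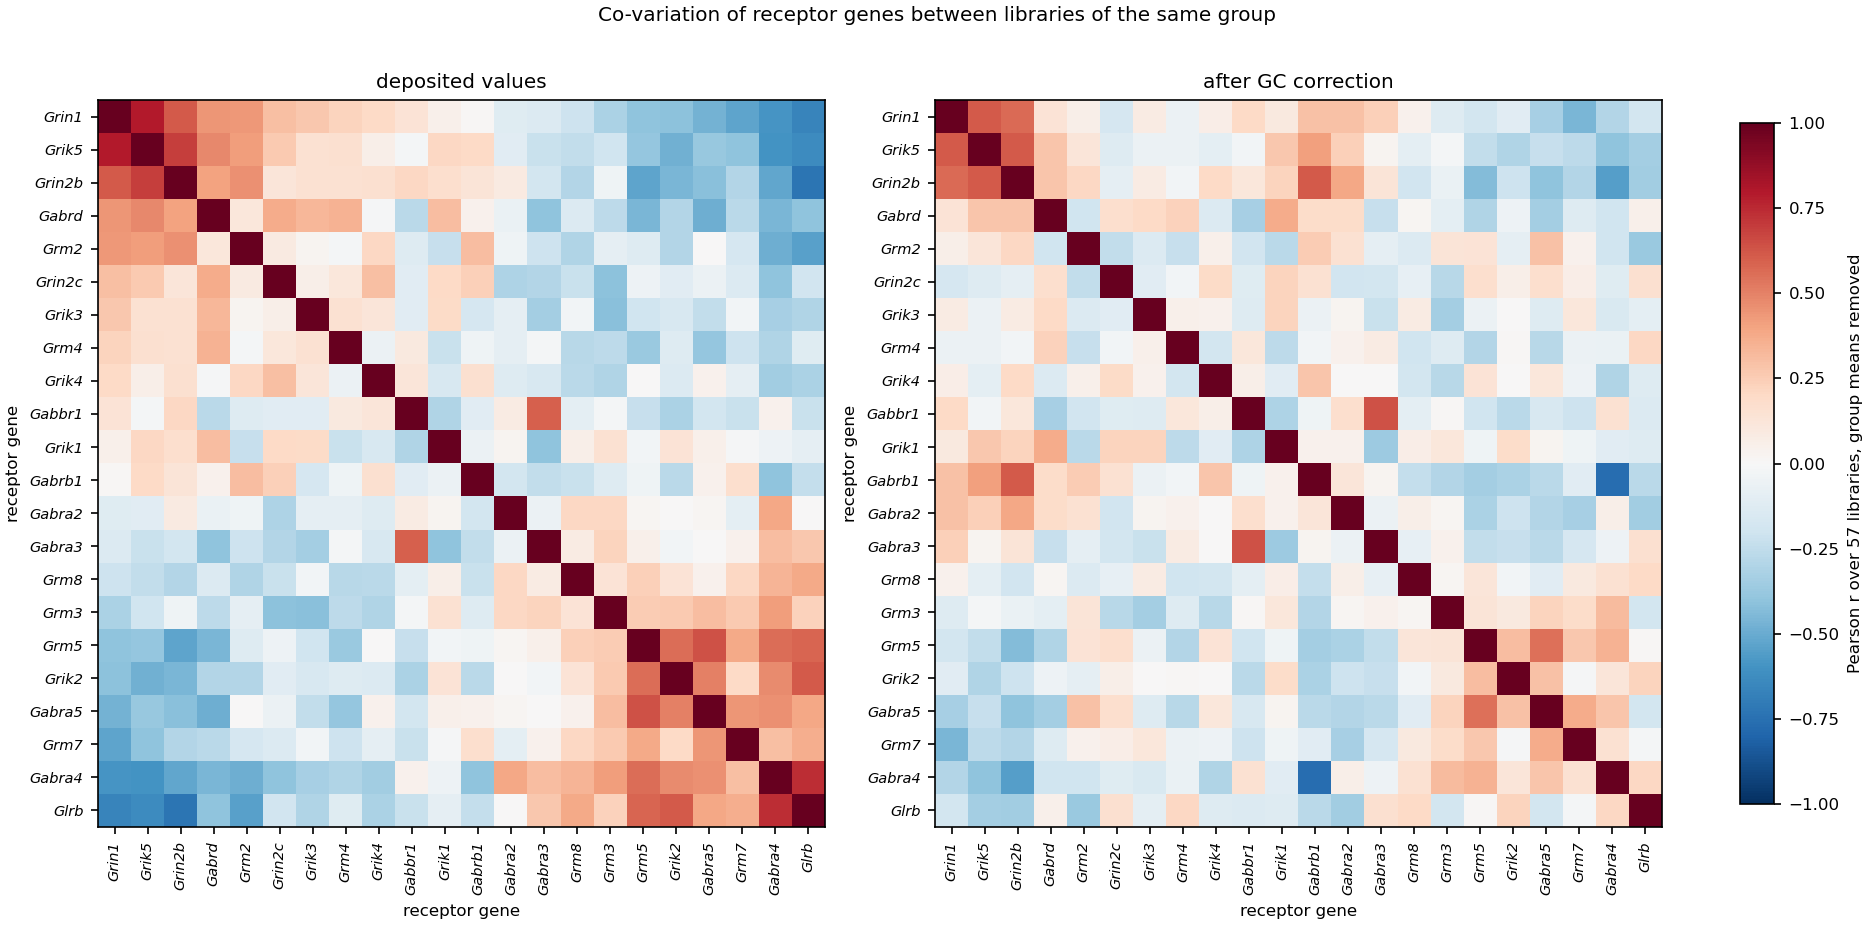
Pearson r between the 22 tested receptor genes over 57 libraries with group means removed (colour scale, -1 to 1), in the deposited values (left) and after correction for GC content (right). Genes are ordered by r with Grin1 in the deposited values on both axes. The block of Gabra4 and Glrb against Grin1 and Grik5 is paler on the right, Grin2b with Gabra4 is at -0.55 there (-0.52 on the left), and the pair of Gabra4 and Gabrb1 is darker.

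The split went with the base composition of whole transcripts, genome-wide. The composition of the 3′ ends that carry the tags was not measured. Over the 21 other members, r with Grin1 correlated with the GC content of the longest coding transcript at 0.71, and over 9984 genes at 0.68. Transcript length gave 0.23 and -0.09. The Glrb transcript had a GC content of 40.8%, and Grin1 and Grik5 transcripts 59.4% and 62.3%. Grin2b was apart from this trend, with 45.7% GC and an r with Grin1 of 0.61.

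**Figure D4:**
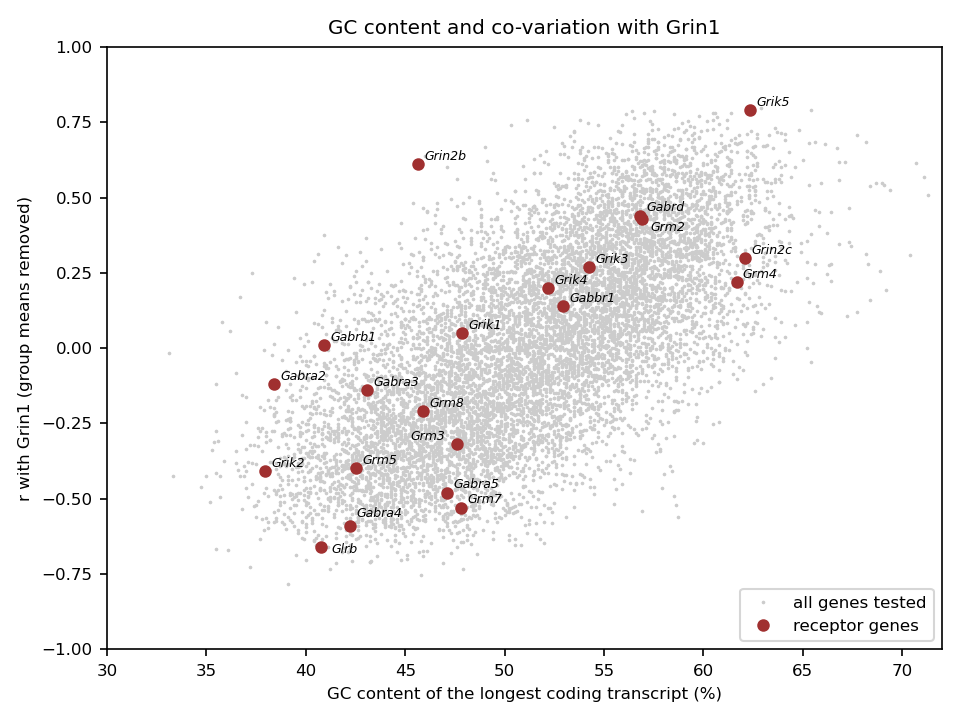
GC content of the longest coding transcript in percent (x axis) against Pearson r with Grin1 over 57 libraries, group means removed (y axis). Grey points are the 9984 genes tested that had a matched coding transcript, and red points the receptor genes, with Grin1 left out of both. Glrb, at 40.8% GC and an r of -0.66, and Grik5, at 62.3% and 0.79, have the lowest and the highest r of the receptor genes, and Grin2b lies above the grey cloud's trend at 45.7% and 0.61.

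Each library's slope of log2 value on GC content, relative to the mean library, ran from -0.29 to 0.27 per 10 percentage points. With group means removed, its r was -0.85 with Gabra4, -0.78 with Glrb, 0.81 with Grin1 and 0.70 with Grik5. The group mean of the slope was lowest at ZT1 in each arm, at -0.08 in light and -0.15 in dark libraries. Grin1 and Grik5 were also lowest at ZT1 in light libraries and in dark ones, and Grm2 in dark libraries, while in light libraries Grm2 was lowest at ZT11.5, with 150.4 ± 4.75 (SD, n = 4). The slope was highest at dark ZT18, at 0.14, where the 5 members listed above were lowest. Summed astrocyte markers had an r of -0.51 with Grin1 and 0.57 with Glrb, and summed oligodendrocyte precursor markers 0.53 and -0.39. Depth had an r of -0.27 with Grin1 and 0.27 with Glrb, and Malat1, a nuclear RNA, -0.36 and 0.25. Within the light arm, replicates 3 and 4 minus replicates 1 and 2 gave a mean log2 difference of -0.66 for Gabra4, -0.13 for Glrb and -1.83 for Malat1. In the dark arm these 3 differences were -0.05, -0.08 and 0.85. The part of these measures in the results was not tested.

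After the values were corrected for GC content, a step added after the data were seen, the course over the day was called for 5 members, against 18.4% of genes. Adjusted p was 0.0089 for Grm2, 0.0097 for Glrb, 0.012 for Grin1, 0.027 for Grin2b and 0.041 for Gabrd. Grik5 lost its call at 0.074. Over the 8 dark times Gabra4 and Glrb were then called, against 7.36% of genes. The light minus dark difference of Gabra4 at ZT18 was 0.89 (SE 0.25, adjusted p = 0.19) in that fit, and 0 members were called in every light minus dark comparison. Pairs of members with r of at least 0.5 were 6 and of at most -0.5 were 2 after the correction, and r was -0.18 for Grin1 and Glrb and 0.61 for Grin1 and Grik5.

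Some members are neighbours in the genome, and their values were set side by side (GENCODE M21, GRCm38). Gabra2 and Gabra4, both on the minus strand of chromosome 5, had an r of 0.39, which was 0.06 after GC correction. Gabra3 on the X chromosome and Gabbr1 on chromosome 17, which are not neighbours, had an r of 0.60, and 0.64 after the correction.

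Gabra4 (chr5:71569749-71658308, minus strand) and Gabrb1 (chr5:71658113-72149037, plus strand) start head to head, with annotated spans that overlap by 196 bases, and their windows are among the sequences above. Their values tended to run in opposite directions between libraries of a group. In dark ZT7.5 libraries Gabra4 was at 40.8, 62.8, 44.2 and 61.2 and Gabrb1, in the same order, at 251, 177, 216 and 229, so that the library highest in Gabra4 was the lowest in Gabrb1. Over 57 libraries r was -0.40 (rho -0.36; -0.37 without the 2 libraries farthest in Gabra4), with -0.35 within light libraries and -0.51 within dark ones. After GC correction r was -0.76 (rho -0.73; -0.72 without the 2 farthest libraries), with -0.77 within light libraries and -0.79 within dark ones. Ranked by r with Gabra4, Gabrb1 stood at place 1322 from the most negative of 10525 genes in the deposited values, and at place 1 after the correction. The corrected values depend on how the correction was built. Both transcripts are low in GC (42.2% for Gabra4 and 40.9% for Gabrb1), and the correction moved both, though by unequal amounts. In the deposited values r with the GC slope was -0.85 for Gabra4 and 0.17 for Gabrb1. The correction therefore put into Gabrb1 a shift related to the slope. In light ZT3 replicate 3, for example, the deviation of Gabrb1 was 0.38 after the correction and 0.04 before. That of Gabra4 was -0.53 after and -0.79 before. Over 57 libraries the r of Gabrb1 with Grin2b was 0.61 after and 0.13 before. The r of -0.40 is therefore the value that does not rest on the correction. The pair was singled out after its values were seen.

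**Figure D5:**
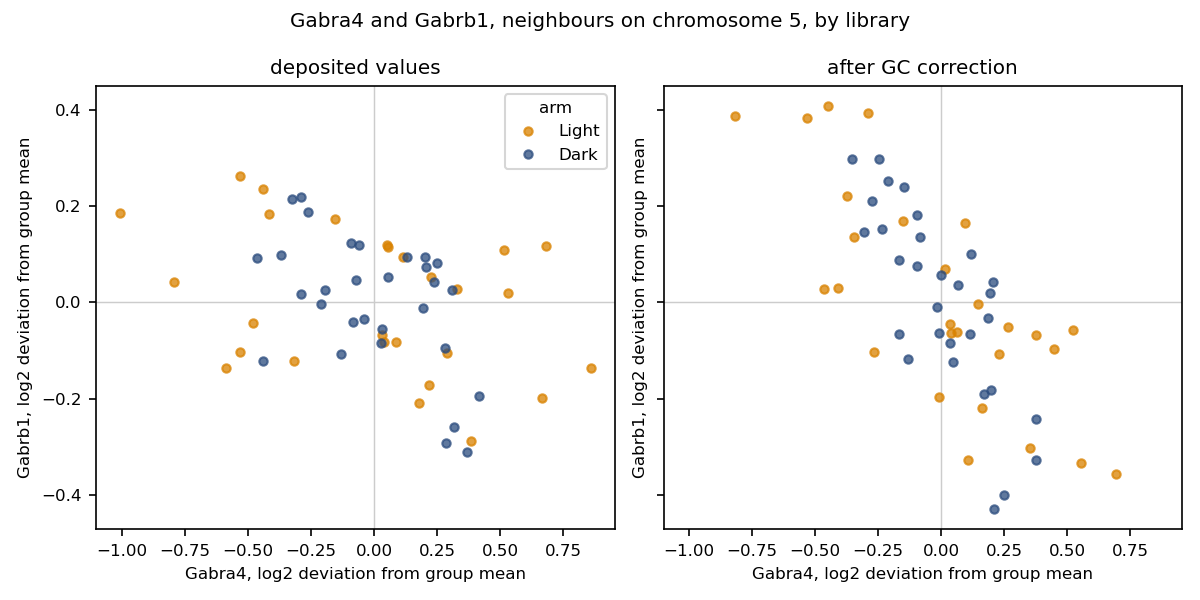
Deviation of Gabra4 (x axes) and Gabrb1 (y axes) from the group mean on the log2(value + 1) scale, in the deposited values (left) and after correction for GC content (right). Each point is 1 of 57 libraries, orange for the light arm and blue for the dark arm. The r was -0.40 on the left and -0.76 on the right.

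Genes that work with these receptors were taken from 5 lists. In every list 0 genes were called in each light minus dark comparison. Over the day, in the mean of both arms, 7 of 20 tested scaffolds and partners of NMDA and metabotropic receptors changed, against 19.3% of all genes. They were Dlg2, Dlgap1, Dlgap2 and Shank3, which build the postsynaptic density, the kinase gene Camk2a, the phosphatase gene Ptpn5, and Elfn2, a transsynaptic ligand of group III receptors. Also changed were 2 of 7 genes of glutamate uptake and packaging (Slc17a7, the vesicular transporter, and Glul, glutamine synthetase), 2 of 15 inhibitory scaffolds and receptor partners (Nlgn2 and Gabarapl1), 1 of 8 genes of GABA turnover (the transporter gene Slc6a13) and 1 of 4 tested auxiliary subunits (Kctd12, which binds GABA-B receptors).

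In the mean of both arms, Camk2a, Dlg2, Nlgn2 and Slc17a7 had their highest group means at ZT13 and their lowest at ZT1, the times also of Grin1 and Grm2. Camk2a was at 5629.7 ± 673 in light and 5471 ± 220.1 in dark libraries at ZT13. At ZT1 it was at 4466 ± 887 in light and 4055 ± 182 in dark libraries (SD, n = 4 in light and 3 in dark; adjusted p = 0.017 for the course). Slc17a7, also a marker of excitatory neurons, was at 4545 ± 730.2 in light and 4181 ± 853 in dark libraries at ZT13. At ZT1 it was at 3152 ± 352 in light and 3543 ± 621 in dark libraries (adjusted p = 0.019 for the course). Summed excitatory neuron markers had an r of 0.45 with Grin1 within groups, microglia markers 0.49 and oligodendrocyte markers 0.43. Summed oligodendrocyte markers ran from 14276 to 16902 in light and 12597 to 14704 in dark libraries at ZT1. At ZT7.5 they ran from 19322 to 25009 and from 17892 to 20195. Microglia sums also did not overlap between these times in either arm. Astrocyte, interneuron and oligodendrocyte precursor sums overlapped in both arms. The part of any of these in the course was not tested. The adjusted p for the course was 0.029 for Dlg2, 0.0028 for Nlgn2, 0.0013 for Dlgap1, 0.048 for Ptpn5, 0.012 for Gabarapl1 and 0.017 for Slc6a13. Kctd12 was highest at ZT1, with 51.1 ± 11.9 in light and 56.2 ± 12.0 in dark libraries. It was lowest at ZT7.5, with 30.6 ± 9.42 in light and 27.6 ± 7.85 in dark libraries (adjusted p = 0.0051 for the course).

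Night minus day differences in the mean of both arms were called for 3 of 20 tested scaffolds and partners and 1 of 8 genes of GABA turnover. In the other lists 0 were called, and the share of all genes tested was 6.94%. In this mean, Elfn2 rose at night by 0.34 on the log2 scale (SE 0.08, adjusted p = 0.0077) and Dlgap2 by 0.32 (SE 0.07, adjusted p = 0.0019). Elfn2 was at 267 ± 42.2 in light and 334 ± 108 in dark libraries at ZT15. At ZT11.5 it was at 191 ± 50.7 in light and 134 ± 19.1 in dark libraries (SD, n = 4 each; adjusted p = 0.00024 for the course). Shank3 rose by 0.15 (SE 0.05, adjusted p = 0.03), and Abat, which breaks GABA down, by 0.14 (SE 0.04, adjusted p = 0.045), also in the mean of both arms. Within light libraries none of the 4 passed, against 1.03% of genes. The differences there were 0.25 for Elfn2 (adjusted p = 0.37), 0.16 for Dlgap2 (0.48), 0.17 for Shank3 (0.21) and 0.05 for Abat (0.80). Within dark libraries the differences were 0.44 for Elfn2 (adjusted p = 0.031), 0.48 for Dlgap2 (0.0034), 0.14 for Shank3 (0.23) and 0.22 for Abat (0.037). The calls there were 2 of 20 tested scaffolds and partners and 1 of 8 genes of GABA turnover, against 2.52% of genes. Whether the arms differed in this was not tested. The Glul values were widely spread between replicates, as at ZT11.5 with 771 ± 328 in light and 858 ± 313 in dark libraries (SD, n = 4 each; adjusted p = 0.0027 for the course).

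Some members could share reads with genes on the opposite strand at their 3′ ends, since the sources used here do not give the strand setting of the counting. In GENCODE M21 such an overlap was found for Grin1 with Grin1os, Grm2 with Gm28111, Gabra5 with Gm9962, Glra1 with Gm12236 and Grin3b with Tmem259. Reads counted for the pair cannot be told apart without that setting.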

How the data were processed

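RNA of mouse visual cortex was profiled by MARS-Seq, which counts 3′ tags, in 57 libraries. The submitters' processing notes name cutadapt, the aligner STAR 2.5.2b, DESeq2 and the build mm10. The deposited table holds 1 signal value per gene and library, a count that the authors divided by a size factor per library. Whole reads were recovered from the spacing of low values in all libraries, with a largest distance of 0.0066 from a whole number. The sources used here do not give the handling of molecular identifiers. The 27 rows with date names, 0.294% to 0.363% of a library's reads, were left out of tests.

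Genes with a mean of at least 10 (10526) were fitted with limma 3.58.1 (trend) on log2(value + 1) in R 4.3.3, with all libraries in 15 groups and no covariate. Tests were two-sided, with Benjamini-Hochberg adjustment at 0.05. Log2 differences on this scale understate changes of low genes. edgeR 4.0.16 and DESeq2 1.42.0 on recovered reads were alternatives. For the GC correction, genes were put in bins of about equal number by the GC content of the whole longest coding transcript. In each bin, a library's median log2 deviation from the gene means was subtracted from its values. Genes without a matched transcript were left unchanged. Within groups, no 2 libraries were copies: 81 replicate pairs had chi-square per degree of freedom of 2.14 to 7.01. Libraries of different groups were not compared in this way. The scripts were tested on simulated data.

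The genes, lists and comparisons were chosen with earlier results of these data known. Members described with values were, by rule, those called in any comparison, the 3 of smallest p in each light minus dark contrast, the 6 of smallest p in each F test and in night minus day, and the highest of each family. Exceptions are marked in the text. Some receptor genes that match the names are not reported here; they stayed in the fit over all genes and are in no count of members.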

Additional observations from a re-analysis of the deposited data

Results flagged for a closer look

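Among 228 combinations of a named member and a group of 4 libraries, 8 (3.51%) held 1 library whose distance from the others was above the 95% limit for its share of the group's range, a test that chance alone passes in about 1 of 20 groups. Grm2 in dark ZT11.5 replicate 2 was at 209, with the others at 164 to 171. Grin2b in light ZT15 replicate 3 was at 618, with the others at 412 to 441, and in dark ZT7.5 replicate 2 it was at 408, with the others at 483 to 495. Glrb in light ZT11.5 replicate 3 was at 469.6, with the others at 361 to 376, and in light ZT15 replicate 3 it was at 248, with the others at 372 to 393. Light ZT15 replicate 3 was thus set apart in both Grin2b and Glrb, in opposite directions.

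Gabra3 in light ZT11.5 replicate 4 was at 81.0, with the others at 125 to 133. Grm4 in light ZT1 replicate 4 was at 189.6, with the others at 93.2 to 103. Gabbr1 in dark ZT18 replicate 4 was at 960.3, with the others at 701 to 744.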

How the results depend on the processing

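The counts of called members were 0 in every light minus dark comparison under all 13 alternatives and in every fit without 1 library. The course over the day in the mean of both arms, with 6 members called, gave 2 (Grin1 and Grm2) with no filter on low values, 4 to 7 under the other alternatives, and 2 to 6 without 1 library. Over the 8 dark times, with 0 called, the fit to only the groups compared gave 2, the replicate block 1, terms for the replicate sets 1, DESeq2 2, the GC correction 2 with and without the replicate block, and a term for summed astrocyte markers 5 (Gabra4, Glrb, Grik2, Grik5 and Grin1). Fits without 1 library gave 0 to 4 there. For night minus day in both arms, terms for the replicate sets gave 1 (Grm3) and fits without 1 library 0 to 2. In the dark arm, the fit to only the groups compared gave 1 (Gabra4) and the astrocyte term 1 (Glrb). The cause of these changes was not tested. For members called or of smallest p, 1413 single values were taken over the alternatives and the fits without 1 library. Of these, 1348 kept their side of the threshold, 54 lost a call and 11 gained one. The sign of a difference reversed in 0, but F tests have no sign to reverse. These members were chosen by their p in the same data, and many were far from the threshold. The counts are therefore no measure of how steady the results are. The GC correction and the astrocyte term were chosen after seeing the data.

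Libraries of the same replicate number in the light and dark arms were not alike as pairs. Over 25 such pairs, each at 1 time, the correlation of deviations had a median of -0.07, was over 0.1 in 5 and under -0.1 in 9. Within each arm the replicate sets did differ, in opposite directions for Malat1, as given above. This correlation therefore cannot show that the numbers carry no differences. The replicate block, which is shared by both arms, kept the 6 calls of the course over the day. Depth limits members of low mean: intervals for a single time reached from 0.23 to 0.69 on either side of the log2 difference, by member and time.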
